A study of Arabidopsis thaliana with 15 samples.

Results

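The alpha-expansins described here are 10 genes of *Arabidopsis thaliana*, EXPA1, EXPA3, EXPA4, EXPA5, EXPA6, EXPA8, EXPA10, EXPA11, EXPA15 and EXPA16, chosen by their gene identifiers among the 32833 rows of a table of read counts. All 10 were in the table, and all 10 passed the filter on low counts that left 19663 genes for testing. The study asked what the transcription factor NAC052, a repressor that works with a histone demethylase, does in leaf and bundle sheath development. Messenger RNA of whole rosettes was sequenced at 28 days from 5 lines, each with 3 libraries that are labelled as biological replicates.

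The lines were named as the study names them, and all were Col-0 plants that carried one and the same reporter. That reporter, which defines the reference line, drives a synthetic GFP with a chloroplast transit peptide from the bundle-specific GLDPA promoter of *Flaveria trinervia*. The GLDT::NAC052 line carried in addition the NAC052 coding sequence under the *F. trinervia* GLDT promoter, inserted at random. In the GLDT::5'truncatedNAC052 line the same promoter drove a coding sequence shortened at its start, and in both lines the native NAC052 gene was left in place. The CRISPR/Cas line had a nucleotide inserted into NAC052, which shifts its reading frame, and the activation-tagged line had the GLDT promoter inserted inside the NAC052 coding sequence. The study describes both GLDT lines in their first and second generations after transformation, and which of these was sequenced is not stated in the sources used here. Beside its sequencing counts the study lists a reduced GFP signal for the GLDT::5'truncatedNAC052 line, which it reports for the second generation. In that generation the leaf phenotype was lost in both GLDT lines. The GLDT promoter acts in the leaf bundle, whereas RNA came from the whole rosette, so that fewer cells of a type and less RNA per cell cannot be told apart in any result below. By the names in the table's header, the reference line and the activation-tagged line (6 libraries) were sequenced on lane 1 and the other lines (9 libraries) on lane 8.

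Expansins are secreted proteins of the plant cell wall that loosen it without cutting its polymers, by weakening the contacts between cellulose and the matrix glucans. They act at acid pH, which plasma membrane proton pumps provide, and so link auxin and other growth signals to cell enlargement. Alpha-expansins are the largest branch of the family in *A. thaliana*, and single members have been tied to leaf growth and pedicel abscission (EXPA10), stomatal movement (EXPA1) and growth of the root tip (EXPA1, EXPA10, EXPA15).

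In the TAIR10.1 assembly of RefSeq, EXPA1 (AT1G69530) lies at chr1:26141726-26143538 and EXPA10 (AT1G26770) at chr1:9259432-9261313, both on the plus strand, and the other 8 members are on minus strands. These are EXPA11 (AT1G20190) at chr1:6998335-6999839, EXPA3 (AT2G37640) at chr2:15787523-15790139, EXPA4 (AT2G39700) at chr2:16543832-16545746, EXPA6 (AT2G28950) at chr2:12431338-12433796 and EXPA8 (AT2G40610) at chr2:16948791-16950705. The others are EXPA15 (AT2G03090) at chr2:916806-918671, EXPA5 (AT3G29030) at chr3:11011262-11013451 and EXPA16 (AT3G55500) at chr3:20574752-20576249. None of the 10 overlapped another annotated gene. The longest exact stretch that a member shared with any other expansin transcript was 33 bases, between EXPA10 and EXPA15, and 21 to 32 bases for the rest.

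The 250 bases before the annotated start are shown for 4 members that moved in opposite directions in the GLDT::NAC052 line, EXPA16 and EXPA10 (higher) and EXPA6 and EXPA1 (lower), 5′ to 3′ on the strand of each gene. The windows are chr3:20576250-20576499 for EXPA16, chr1:9259182-9259431 for EXPA10, chr2:12433797-12434046 for EXPA6 and chr1:26141476-26141725 for EXPA1. Capitals mark TGTCTC, the auxin response element, and CGTGTG, a brassinosteroid response element, on either strand.
EXPA16: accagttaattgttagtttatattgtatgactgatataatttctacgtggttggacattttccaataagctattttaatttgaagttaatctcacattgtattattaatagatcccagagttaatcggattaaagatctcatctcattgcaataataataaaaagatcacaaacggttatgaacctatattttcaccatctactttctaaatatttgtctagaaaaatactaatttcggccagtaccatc
EXPA10: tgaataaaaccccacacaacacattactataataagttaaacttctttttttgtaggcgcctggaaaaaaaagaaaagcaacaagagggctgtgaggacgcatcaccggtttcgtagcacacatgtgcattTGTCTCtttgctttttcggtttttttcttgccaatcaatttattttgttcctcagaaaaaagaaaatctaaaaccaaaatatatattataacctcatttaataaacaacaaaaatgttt
EXPA6: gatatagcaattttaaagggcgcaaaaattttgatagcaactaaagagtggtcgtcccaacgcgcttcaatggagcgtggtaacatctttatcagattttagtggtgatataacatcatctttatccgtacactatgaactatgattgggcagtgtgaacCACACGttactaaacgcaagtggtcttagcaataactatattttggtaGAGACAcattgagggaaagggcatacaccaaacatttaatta
EXPA1: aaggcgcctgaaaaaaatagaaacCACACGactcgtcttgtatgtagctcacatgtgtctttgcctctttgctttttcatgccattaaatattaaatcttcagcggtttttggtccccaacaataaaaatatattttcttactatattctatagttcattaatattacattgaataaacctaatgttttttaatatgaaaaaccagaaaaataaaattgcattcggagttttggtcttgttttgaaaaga
A window of 300 bases, these 250 and the first 50 of the transcript, was searched on both strands in all 10 members and in 27443 genes. TGTCTC was in 4 members (EXPA5, EXPA6, EXPA8, EXPA10) and in 14.2% of all windows. CGTGTG was in 2 members (EXPA1, EXPA6) and in 6.52% of all windows. The G-box CACGTG, present in 7.68% of windows, and the motif given for NAC050 and NAC052, CTTG and CAAG separated by 5 bases and present in 0.904%, were in 0 of 10. None of these motifs overlapped another in the windows printed, and a match is only a description of the letters.

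NAC052 was measured first as a check of the lines. Its level, in CPM (counts scaled to a common library size with TMM, the trimmed mean of M values), was 280, 27.2 and 165 CPM in GLDT::NAC052 replicates 1, 2 and 3 and 25.0, 66.0 and 52.5 CPM in the GLDT::5'truncatedNAC052 replicates. The CRISPR/Cas libraries had 22.2, 20.1 and 22.6 CPM and the activation-tagged libraries 64.0, 61.7 and 80.0 CPM, against 19.7, 20.6 and 19.5 CPM in the reference line. Replicate 2 of the GLDT::NAC052 line thus had far less NAC052 than replicates 1 and 3, and replicate 1 of the GLDT::5'truncatedNAC052 line and all CRISPR/Cas libraries were near the reference line. By edgeR's quasi-likelihood test with Benjamini-Hochberg adjustment NAC052 passed as higher only in the GLDT::NAC052 line (log2 fold change 2.98, adjusted p = 0.00368), while the activation-tagged line gave 1.78 (adjusted p = 0.137). Every activation-tagged library nevertheless lay far above every reference library. The test used a spread shared by all lines, among them the widely scattered GLDT::NAC052 libraries. Library totals ran from 28074380 to 38579309 counts, and log2 counts correlated at 0.982 to 0.993 within lines and at 0.917 to 0.989 between lines. At this depth the members had between 64 counts (EXPA15 in an activation-tagged library) and 17987 counts (EXPA1 in a CRISPR/Cas library) per library.

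Per kilobase of exon, which allows genes to be compared, EXPA1 was the most abundant member in all 5 lines and EXPA15 the least. In the reference line EXPA1 stood at 166.6, EXPA8 at 80.1, EXPA6 at 47.8, EXPA11 at 24.0, EXPA16 at 21.2 and EXPA5 at 20.9 CPM per kb. EXPA4 followed at 14.5, EXPA3 at 8.25, EXPA10 at 7.56 and EXPA15 at 2.19 CPM per kb. The sum over the 10 members was 314, 273 and 247 CPM per kb in the GLDT::NAC052 libraries and 421, 370 and 264 in the GLDT::5'truncatedNAC052 libraries. It was 350, 440 and 502 in the CRISPR/Cas libraries and 348, 329 and 337 in the activation-tagged libraries, against 426, 373 and 380 CPM per kb in the reference line. The sum was therefore lowest in the GLDT::NAC052 line, whose libraries overlapped only those of the GLDT::5'truncatedNAC052 line.

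The make-up of the sum also differed between the lines. EXPA3, EXPA4, EXPA10 and EXPA16, grouped here after their values were seen, made up 38.9% ± 4.0 of it in the GLDT::NAC052 line and 28.3% ± 4.5 of it in the GLDT::5'truncatedNAC052 line. Their share was 7.89% ± 1.36 in the CRISPR/Cas line and 10.4% ± 1.4 in the activation-tagged line, against 13.3% ± 3.9 in the reference line (SD, n = 3 each). EXPA1 and EXPA6 together made up 39.7% ± 4.2, 44.4% ± 3.0, 70.01% ± 1.08 and 64.0% ± 2.3 in the same 4 lines, against 54.4% ± 4.4 in the reference line. EXPA1 alone gave 29.3% of the sum in the GLDT::NAC052 line and 53.5% in the CRISPR/Cas line, against 42.3% in the reference line.

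**Figure D1:**
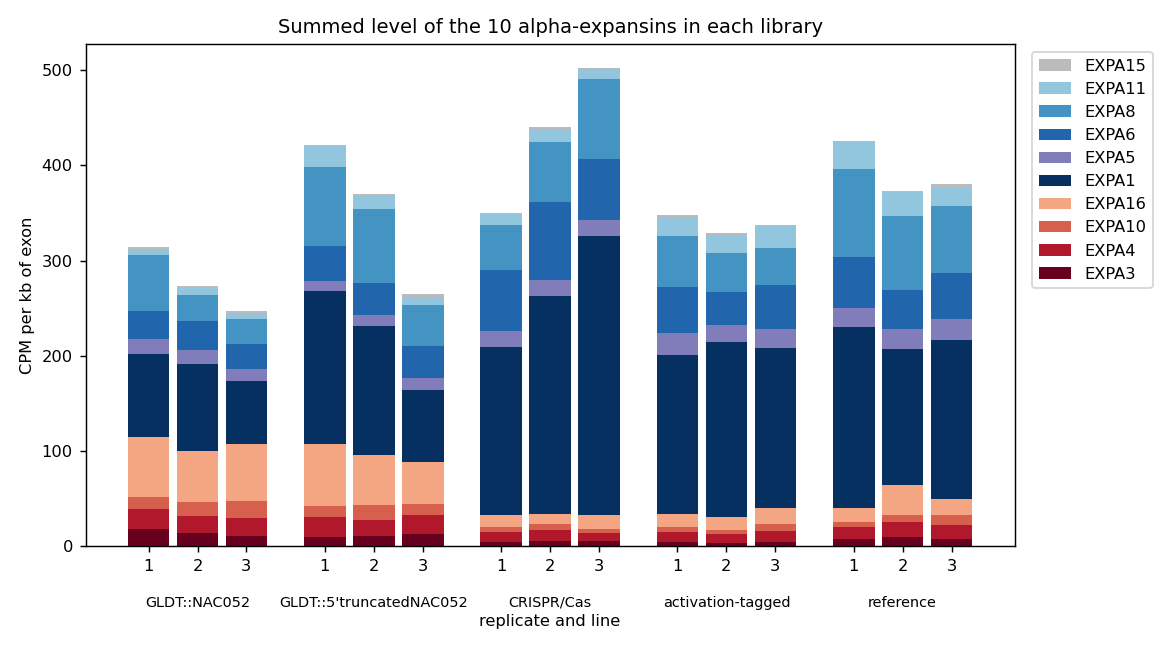
Summed level of the 10 alpha-expansins in each library, in CPM per kb of exon, stacked by member. Red shades are EXPA3, EXPA4, EXPA10 and EXPA16, which make up 38.9% of the GLDT::NAC052 bars and 7.89% of the CRISPR/Cas bars, against 13.3% of the reference bars. The tall dark blue part is EXPA1.

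The GLDT::NAC052 line was compared with the reference line to see how the 10 members respond when NAC052 is driven by the bundle promoter. Of the 10 members, 9 passed the test: EXPA3, EXPA4, EXPA10 and EXPA16 rose, and EXPA1, EXPA5, EXPA6, EXPA8 and EXPA11 fell. Over all genes tested, 16.9% were higher and 17.2% lower in this comparison, and 8.09% passed with a fold change above 2 or below 0.5, the study's limits, which 5 members met. The median log2 fold change was -0.45 over the members and -0.002 over all genes.

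Among the members that rose, EXPA16 had 79.1, 66.9 and 74.6 CPM in the GLDT::NAC052 libraries, against 18.1, 39.6 and 21.9 CPM in the reference libraries. EXPA10, the member tied to leaf growth, had 20.1, 23.6 and 28.2 CPM in the GLDT::NAC052 line, against 9.18, 11.3 and 15.2 CPM in the reference line. Neither gene overlapped between the lines, although replicate 2 of the reference line stood well above replicates 1 and 3 for EXPA16. The log2 fold changes were 1.47 ± 0.24 for EXPA16 (adjusted p = 0.000738) and 1.014 ± 0.214 for EXPA10 (adjusted p = 0.00285; edgeR, Benjamini-Hochberg, with standard errors). EXPA3, whose overexpression has been linked to salt sensitivity, had 31.9, 25.2 and 19.6 CPM in the GLDT::NAC052 line, against 13.5, 17.3 and 13.3 CPM in the reference line (log2 fold change 0.80, edgeR adjusted p = 0.00325). EXPA4, known from pollen tubes, had 31.8, 26.3 and 28.5 CPM in the GLDT::NAC052 line, against 18.4, 23.6 and 23.1 CPM in the reference line (log2 fold change 0.41, edgeR adjusted p = 0.0339). All 3 GLDT::NAC052 libraries were above all 3 reference libraries for both genes.

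Of the members that fell, EXPA11 changed most, with 9.61, 10.9 and 8.57 CPM in the GLDT::NAC052 libraries, against 38.3, 32.6 and 25.8 CPM in the reference libraries. EXPA1, the most abundant member, had 135, 141 and 103 CPM in the GLDT::NAC052 line, against 294, 221 and 258 CPM in the reference line. The log2 fold changes were -1.74 ± 0.25 for EXPA11 (adjusted p = 0.000315) and -1.03 ± 0.24 for EXPA1 (adjusted p = 0.00543; edgeR, Benjamini-Hochberg). In both, the lowest reference library was well above the highest GLDT::NAC052 library. EXPA8 had 77.5, 35.85 and 35.1 CPM in the GLDT::NAC052 line, against 122, 103 and 93.35 CPM in the reference line (log2 fold change -1.101, edgeR adjusted p = 0.0231), and replicate 1 lay nearer the lowest reference library than the other GLDT::NAC052 libraries. EXPA6 (47.2, 48.4 and 41.0 CPM, against 85.6, 65.6 and 76.8 CPM in the reference line) and EXPA5 (21.5, 20.7 and 17.9 CPM, against 28.2, 30.0 and 31.3 CPM) fell by 0.74 and 0.57 on the log2 scale (edgeR adjusted p = 0.000983 and 0.000758).

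EXPA15 was the member that did not pass, with 2.36, 2.44 and 2.71 CPM in the GLDT::NAC052 line, against 1.94, 2.77 and 4.70 CPM in the reference line, which enclosed them. Without GLDT::NAC052 replicate 2, whose NAC052 level was low, 8 members passed, EXPA8 being lost (adjusted p = 0.0778), and the 4 that rose all passed. That fit called 6215 of 19862 genes tested, against 6704 of 19663 in the main fit. The call of EXPA4 was lost without reference replicate 1 or 3 or GLDT::NAC052 replicate 1 or 3 (edgeR adjusted p = 0.0506 to 0.142), and that of EXPA8 also without reference replicate 1 or GLDT::NAC052 replicate 3 (0.0566 and 0.0974) or with only the 6 libraries compared (0.0521). The lines were on different lanes, so that line and lane cannot be told apart here, nor in the comparisons of the GLDT::5'truncatedNAC052 and CRISPR/Cas lines with the reference line, and the activation-tagged comparison shares those 3 reference libraries with all of them.

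**Figure D2:**
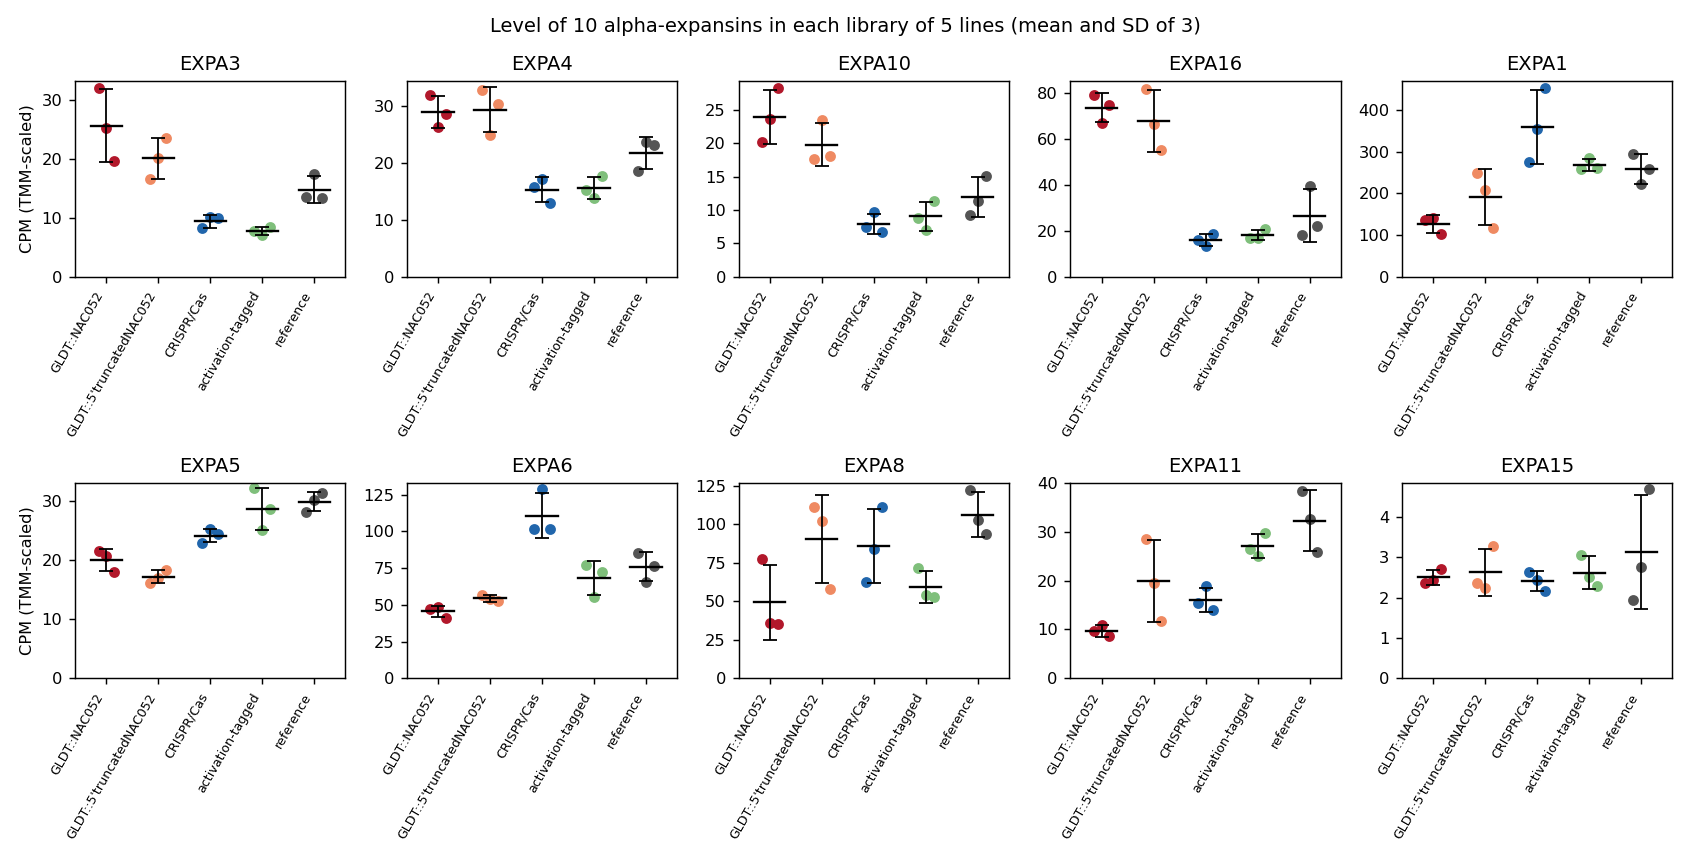
Level of each member in every library, in CPM on an axis from 0, for the GLDT::NAC052, GLDT::5'truncatedNAC052, CRISPR/Cas, activation-tagged and reference lines; points are libraries, lines and bars the mean and SD of 3. In the first 4 panels (EXPA3, EXPA4, EXPA10, EXPA16) both GLDT lines lie high and the CRISPR/Cas and activation-tagged lines low, while EXPA1 and EXPA6 are highest in the CRISPR/Cas line.

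The GLDT::5'truncatedNAC052 line was set against the reference line to see what NAC052 without its start does under the same promoter. EXPA16 rose and EXPA5 and EXPA6 fell, and 7 members did not pass. Over all genes tested 2.77% were higher and 3.05% lower, and 0.895% passed with the fold limits, which EXPA16 alone of the members met. The median log2 fold change was -0.24 over the members and 0.01 over all genes. EXPA16 had 81.6, 66.5 and 54.9 CPM in the GLDT::5'truncatedNAC052 line, against 18.1, 39.6 and 21.9 CPM in the reference line, with no overlap (log2 fold change 1.35 ± 0.24, edgeR adjusted p = 0.00965). EXPA5 had 16.1, 17.0 and 18.4 CPM in the GLDT::5'truncatedNAC052 line, against 28.2, 30.0 and 31.3 CPM in the reference line, again without overlap (log2 fold change -0.80 ± 0.10, edgeR adjusted p = 0.00369). EXPA6 had 57.0, 53.7 and 52.6 CPM, against 85.6, 65.6 and 76.8 CPM in the reference line (log2 fold change -0.48, edgeR adjusted p = 0.0487).

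Other members gave log2 fold changes of 0.73 (EXPA10), 0.45 (EXPA3) and 0.43 (EXPA4) with edgeR adjusted p of 0.061, 0.15 and 0.0844. EXPA11 had 28.5, 19.4 and 11.8 CPM in the GLDT::5'truncatedNAC052 line and EXPA1 had 248, 209 and 116 CPM, and both overlapped the reference line. Both were lowest in replicate 3, the library in which EXPA8 was also lowest, at 57.7 CPM, with 111 and 102 CPM in replicates 1 and 2. The call of EXPA6 was lost in 5 of 6 fits that each left out a library, all but the one without reference replicate 2 (edgeR adjusted p = 0.079 to 0.181), and under 6 of 8 other settings. Without GLDT::5'truncatedNAC052 replicate 1, whose NAC052 level was near that of the reference line, 3 members again passed, EXPA16 (log2 fold change 1.195), EXPA5 (-0.753) and, in place of EXPA6, EXPA11 (-1.048; edgeR adjusted p = 0.0324, 0.0134 and 0.0255). That fit called 754 of 19882 genes tested, against 1145 of 19663 in the main fit. EXPA16 had an adjusted p of 0.0936 when only the 6 libraries compared entered the fit.

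Set against the GLDT::5'truncatedNAC052 line, with which it shared lane 8, the GLDT::NAC052 line differed in 1 member, EXPA11. It had 9.61, 10.9 and 8.57 CPM in the GLDT::NAC052 line, against 28.5, 19.4 and 11.8 CPM in the GLDT::5'truncatedNAC052 line (log2 fold change -1.04 ± 0.25, edgeR adjusted p = 0.0265). The lowest GLDT::5'truncatedNAC052 library was only just above the highest GLDT::NAC052 library. In this comparison 4.61% of the genes tested were higher, 3.77% lower and 1.63% past the fold limits, and the members' median was -0.04, against -0.02 over all genes. The 4 members that rose in the GLDT::NAC052 line gave small differences here: 0.12 ± 0.24 for EXPA16, 0.28 ± 0.21 for EXPA10, 0.35 ± 0.17 for EXPA3 and -0.02 ± 0.14 for EXPA4 on the log2 scale, none past the test. Among those that fell there, EXPA8 and EXPA1 gave larger differences that did not pass either, -0.87 ± 0.33 and -0.60 ± 0.24 (edgeR adjusted p = 0.129 and 0.14). EXPA6 gave -0.26 ± 0.13 and EXPA5 0.22 ± 0.10 (edgeR adjusted p = 0.249 and 0.189). The call of EXPA11 was lost without replicate 1 (adjusted p = 0.0963) or 2 (0.0891) of the GLDT::5'truncatedNAC052 line, without replicate 1 (0.0587) or 3 (0.118) of the GLDT::NAC052 line, and with only the 6 libraries compared (0.157; edgeR). Without GLDT::5'truncatedNAC052 replicate 3, 3 members passed, all lower in the GLDT::NAC052 line. The genes called overall also rose in that fit, to 3128 of 19876 tested, against 1647 of 19663 in the main fit.

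In the CRISPR/Cas line, where NAC052 carries a frameshift, 6 members passed against the reference line. EXPA6 rose, and EXPA3, EXPA4, EXPA5, EXPA11 and EXPA16 fell. Over all genes tested 10.9% were higher and 12.9% lower, and 6.64% passed with the fold limits, as EXPA11 did among the members. The median log2 fold change was -0.44 over the members and 0.00 over all genes.

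EXPA6 had 102, 129 and 102 CPM in the CRISPR/Cas libraries, against 85.6, 65.6 and 76.8 CPM in the reference libraries (log2 fold change 0.54 ± 0.13, edgeR adjusted p = 0.00987). EXPA11 had 15.3, 18.8 and 14.1 CPM in the CRISPR/Cas line, against 38.3, 32.6 and 25.8 CPM in the reference line (log2 fold change -1.004 ± 0.247, edgeR adjusted p = 0.0115). EXPA3 had 8.17, 10.2 and 9.95 CPM, against 13.5, 17.3 and 13.3 CPM in the reference line (log2 fold change -0.64, edgeR adjusted p = 0.0185). In these 3 genes no CRISPR/Cas library reached into the range of the reference line. EXPA4 (15.7, 17.2 and 12.9 CPM, against 18.4, 23.6 and 23.1 CPM) and EXPA5 (22.9, 25.2 and 24.3 CPM, against 28.2, 30.0 and 31.3 CPM) fell by 0.51 and 0.30 on the log2 scale (edgeR adjusted p = 0.0186 and 0.038). EXPA16 had 16.1, 13.4 and 18.6 CPM in the CRISPR/Cas line, against 18.1, 39.6 and 21.9 CPM in the reference line, and the lines overlapped (log2 fold change -0.73, edgeR adjusted p = 0.0465).

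EXPA1 had 274, 354 and 452 CPM in the CRISPR/Cas line, against 294, 221 and 258 CPM in the reference line, which gave 0.48 ± 0.24 on the log2 scale and did not pass (edgeR adjusted p = 0.162). Without reference replicate 2 only EXPA11 passed, and the count was 3 without CRISPR/Cas replicate 1 or 3 and 4 without reference replicate 3 or CRISPR/Cas replicate 2. Fewer genes were called throughout in these fits, 3052, 3223, 3116, 3221 and 3100 in the order named. That was out of 19838 to 19880 tested, against 4669 of 19663 in the main fit. EXPA11 passed in all 6 such fits, whereas EXPA16 was lost in 4, with an adjusted p of 0.228 without reference replicate 2, and EXPA5 in 5 (edgeR adjusted p = 0.0583 to 0.228 for the fits in which either was lost). The call of EXPA3 was lost without reference replicate 2 or CRISPR/Cas replicate 1 (0.0857 and 0.0735), that of EXPA4 without reference replicate 2 or 3 or CRISPR/Cas replicate 3 (0.0651 to 0.075), and that of EXPA6 without replicate 2 of either line (0.0503 and 0.056; edgeR adjusted p). With libraries scaled by their totals alone 3 members passed, 2 of them higher, and EXPA3, EXPA4, EXPA5 and EXPA16 did not (adjusted p = 0.0676 to 0.388). With no filter on low counts EXPA5 and EXPA16 did not pass (0.0607 and 0.0612), and EXPA16 did not with limma voom (0.0612) or with only the 6 libraries compared (0.144).

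**Figure D3:**
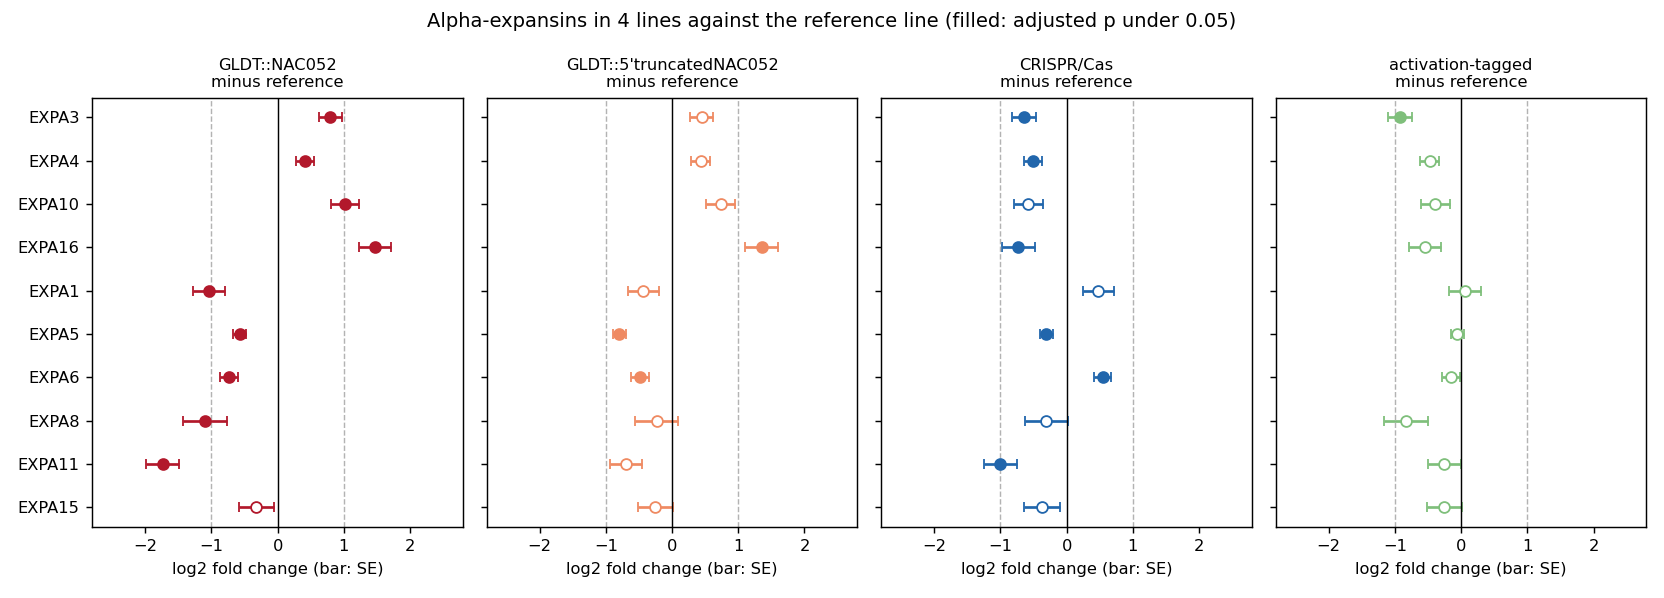
Log2 fold change of each member in the GLDT::NAC052, GLDT::5'truncatedNAC052, CRISPR/Cas and activation-tagged lines against the reference line, with standard errors; filled points passed the test and dashed lines mark 2-fold. EXPA3, EXPA4, EXPA10 and EXPA16 lie right of 0 in both GLDT lines and left of 0 in the other lines, and 9 points are filled in the first panel, 3, 6 and 1 in the others.

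Among the comparisons within a lane, the GLDT::NAC052 line against the CRISPR/Cas line had the most genes called. EXPA3, EXPA4, EXPA10 and EXPA16 were higher and EXPA1, EXPA5, EXPA6 and EXPA11 lower in the GLDT::NAC052 line, which makes 8 of 10 members. Over all genes tested 20.8% were higher and 20.4% lower, and 12.8% passed with the fold limits, as did 5 members. The median was -0.11 over the members and 0.00 over all genes. EXPA16 had 79.1, 66.9 and 74.6 CPM in the GLDT::NAC052 line, against 16.1, 13.4 and 18.6 CPM in the CRISPR/Cas line (log2 fold change 2.20 ± 0.25, edgeR adjusted p = 2.4e-05). EXPA10 had 20.1, 23.6 and 28.2 CPM, against 7.47, 9.63 and 6.66 CPM in the CRISPR/Cas line (log2 fold change 1.60 ± 0.22, edgeR adjusted p = 7.0e-05). For EXPA3 and EXPA4 the log2 fold changes were 1.44 ± 0.18 and 0.92 ± 0.14 (edgeR adjusted p = 2.7e-05 and 0.000154). None of the 4 genes overlapped between the lines.

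EXPA1 had 135, 141 and 103 CPM in the GLDT::NAC052 line, against 274, 354 and 452 CPM in the CRISPR/Cas line (log2 fold change -1.51 ± 0.24, edgeR adjusted p = 0.000292). EXPA6 had 47.2, 48.4 and 41.0 CPM, against 102, 129 and 102 CPM in the CRISPR/Cas line (log2 fold change -1.28 ± 0.14, edgeR adjusted p = 7.8e-06). In both genes even the lowest CRISPR/Cas library lay far above the highest of the GLDT::NAC052 line. EXPA11 and EXPA5 fell by 0.73 and 0.27 on the log2 scale (edgeR adjusted p = 0.0322 and 0.0429). EXPA8 gave -0.80 (edgeR adjusted p = 0.0729) and EXPA15 0.06 (0.886), and neither passed. The call of EXPA5 was lost in 5 of 6 fits that each left out a library, all but the one without GLDT::NAC052 replicate 1 (adjusted p = 0.0588 to 0.179), as well as with no filter on low counts (0.0668), a replicate block (0.0583) or only the 6 libraries compared (0.0666), and that of EXPA11 without replicate 1 or 2 of the CRISPR/Cas line or 1 or 3 of the GLDT::NAC052 line (0.0612 to 0.11; edgeR). The other 6 members passed in all 6.

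The CRISPR/Cas line was also set against the GLDT::5'truncatedNAC052 line of the same lane, and 7 members differed. EXPA1, EXPA5 and EXPA6 were higher and EXPA3, EXPA4, EXPA10 and EXPA16 lower in the CRISPR/Cas line, and 4 of the 7 were past the fold limits. Over all genes tested 13.1% were higher, 15.2% lower and 7.93% past the fold limits, and the median was -0.22 over the members and -0.01 over all genes. EXPA16 had 16.1, 13.4 and 18.6 CPM in the CRISPR/Cas line, against 81.6, 66.5 and 54.9 CPM in the GLDT::5'truncatedNAC052 line (log2 fold change -2.08 ± 0.25, edgeR adjusted p = 0.0001). EXPA10 and EXPA3 gave -1.32 ± 0.22 and -1.09 ± 0.18 and EXPA4 -0.94 ± 0.14 (edgeR adjusted p = 0.000664, 0.000544 and 0.000304). EXPA6 had 102, 129 and 102 CPM, against 57.0, 53.7 and 52.6 CPM in the GLDT::5'truncatedNAC052 line (log2 fold change 1.02 ± 0.13, edgeR adjusted p = 0.000118). EXPA1 and EXPA5 gave 0.91 and 0.49 (edgeR adjusted p = 0.0126 and 0.00253), and none of these 7 genes overlapped between the lines. Only EXPA1 lost its call when a library was left out, CRISPR/Cas replicate 3 (adjusted p = 0.0616), and likewise with only the 6 libraries compared (0.0625; edgeR).

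**Figure D4:**
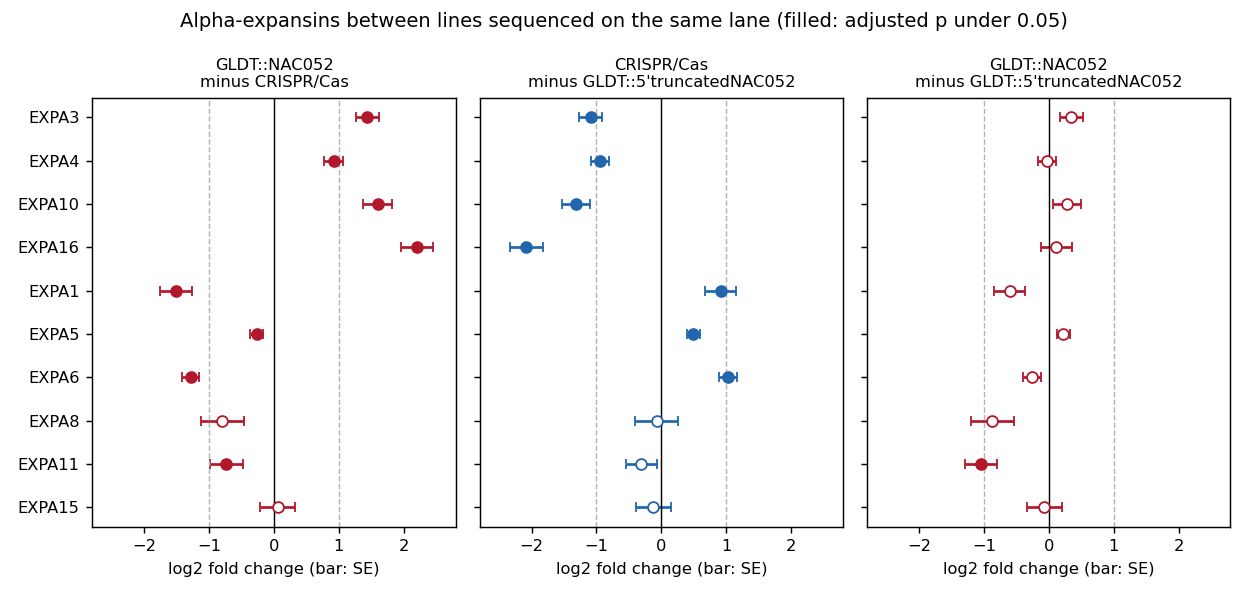
Log2 fold change of each member between lines sequenced on lane 8, with standard errors, for GLDT::NAC052 minus CRISPR/Cas, CRISPR/Cas minus GLDT::5'truncatedNAC052 and GLDT::NAC052 minus GLDT::5'truncatedNAC052; filled points passed the test. The first panel spans -1.51 (EXPA1) to 2.20 (EXPA16), the second -2.08 (EXPA16) to 1.02 (EXPA6), and in the third only EXPA11, at -1.04, is filled.

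The activation-tagged line, on the same lane as the reference line, differed from it in 1 member. EXPA3 had 7.79, 7.04 and 8.36 CPM in the activation-tagged line, against 13.5, 17.3 and 13.3 CPM in the reference line (log2 fold change -0.93 ± 0.18, edgeR adjusted p = 0.0141). All 3 activation-tagged libraries lay far under the reference libraries. Over all genes tested 1.92% were higher, 1.75% lower and 1.11% past the fold limits, and no member met those limits. The members' median was -0.32 and that of all genes -0.01. EXPA4 had 15.3, 13.8 and 17.7 CPM in the activation-tagged line, against 18.4, 23.6 and 23.1 CPM in the reference line, and did not pass (log2 fold change -0.48, edgeR adjusted p = 0.0806). EXPA8 had 71.4, 54.3 and 52.6 CPM, against 122, 103 and 93.35 CPM in the reference line, and did not pass either (log2 fold change -0.84 ± 0.33, edgeR adjusted p = 0.2). For both genes the lines did not overlap. EXPA1 was at 259, 284 and 260 CPM in the activation-tagged line, inside the range of the reference line. The call of EXPA3 was lost without reference replicate 2 (adjusted p = 0.0575) or activation-tagged replicate 2 (0.0701; edgeR).

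Over the 5 lines, the order of mean levels was the same for EXPA10 and EXPA16: GLDT::NAC052, GLDT::5'truncatedNAC052, reference, activation-tagged, CRISPR/Cas. In both, the libraries of the first 2 lines overlapped each other and lay apart from the reference line, and the other neighbours overlapped. The highest line mean was 4.59 times the lowest for EXPA16, 3.33 times for EXPA11, 3.31 times for EXPA3 and 3.03 times for EXPA10. It was 2.85 times for EXPA1, 2.43 times for EXPA6, 2.15 times for EXPA8, 1.92 times for EXPA4, 1.74 times for EXPA5 and 1.3 times for EXPA15. For EXPA1, EXPA8 and EXPA15 every pair of neighbouring lines overlapped, although for EXPA1 the ends of the order, CRISPR/Cas and GLDT::NAC052, lay well apart. EXPA6 stood apart at both ends, highest in the CRISPR/Cas line and lowest in the GLDT::NAC052 line.

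The members fell into groups by how their levels moved together over the 15 libraries, described by Pearson's r of log2(CPM + 1) with no test, since the libraries share lines and lanes. The 6 pairs among EXPA3, EXPA4, EXPA10 and EXPA16 had r between 0.84 (EXPA3 with EXPA10) and 0.91 (EXPA4 with EXPA16). EXPA1 and EXPA6 had r = 0.84, and these were the 7 of 45 pairs with r above 0.7. Below -0.7 were 8 pairs, all but one of them EXPA1 or EXPA6 with a member of the first group, with the lowest r at -0.84 (EXPA6 with EXPA16), and the remaining pair was EXPA5 with EXPA16 (-0.75). EXPA8, EXPA11 and EXPA15 had no pair past either limit, and EXPA15 had none above 0.28.

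**Figure D5:**
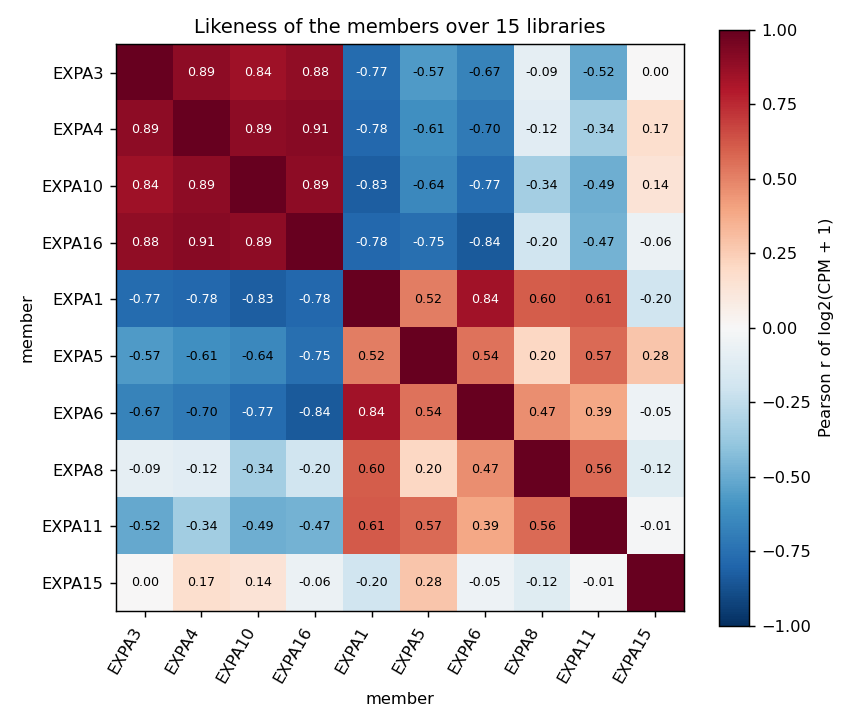
Pearson's r of log2(CPM + 1) between members over 15 libraries, red for positive and blue for negative. The block of EXPA3, EXPA4, EXPA10 and EXPA16 at the upper left has r of 0.84 to 0.91, and EXPA1 and EXPA6 are negative with all 4.

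Of all genes tested, those most like EXPA16 over the 15 libraries were CYS3 (AT2G40880), AT1G13930 and WRKY69 (AT3G58710), with r of 0.96, 0.96 and 0.95. For EXPA10 they were RAP2-6 (AT1G43160), AT5G10820 and ERF114 (AT5G61890), with r of 0.96, 0.95 and 0.95. For EXPA6 they were TIC20-I (AT1G04940), AT5G24260 and MORF9 (AT1G11430), with r of 0.98, 0.96 and 0.96. For EXPA1 they were FPGS2 (AT3G10160), CFM3A (AT3G23070) and AT5G57960, with r of 0.95, 0.95 and 0.94. No alpha-expansin was among the 3 nearest genes of another, and EXPA15 had no gene nearer than r = 0.80.

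The rest of the expansin superfamily, 26 genes of which 25 were in the table and 10 were tested, is given by its counts beside the shares over all genes. It includes the alpha-expansins that are not among the 10 members, so the results above do not cover the whole alpha branch. Against the reference line, 2 were higher and 3 lower in the GLDT::NAC052 line, where 16.9% and 17.2% of all genes were. The GLDT::5'truncatedNAC052 line had 0 higher and 1 lower (2.77% and 3.05% of all genes), the CRISPR/Cas line 1 higher and 3 lower (10.9% and 12.9%), and the activation-tagged line 0 higher and 1 lower (1.92% and 1.75%). Their median log2 fold changes in the 4 lines, in this order, were -0.06, -0.15, -0.47 and -0.23. EXPB1, a beta-expansin, had 0.956, 1.29 and 0.482 CPM in the GLDT::NAC052 line and 2.69, 2.71 and 1.96 CPM in the GLDT::5'truncatedNAC052 line, against 5.80, 5.26 and 4.67 CPM in the reference line (log2 fold changes -2.53 and -1.098, edgeR adjusted p = 5.7e-05 and 0.0314). EXLA2, an expansin-like A gene, had 11.8, 9.72 and 13.2 CPM in the GLDT::NAC052 line and 2.58, 2.07 and 2.34 CPM in the CRISPR/Cas line, against 5.74, 4.89 and 5.51 CPM in the reference line (log2 fold changes 1.103 and -1.21, edgeR adjusted p = 0.000725 and 0.001). EXLA2 thus rose in one line and fell in the other, as EXPA3, EXPA4 and EXPA16 did. EXLB1, an expansin-like B gene, had 2.82, 2.56 and 2.55 CPM in the activation-tagged line, against 7.99, 6.35 and 7.66 CPM in the reference line (log2 fold change -1.47, edgeR adjusted p = 0.00458).

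Among the proton pumps that acidify the wall, 11 AHA genes, 9 were tested. Of these, 2 were higher in the GLDT::NAC052 line (AHA2 and AHA8), 2 higher in the GLDT::5'truncatedNAC052 line (AHA1 and AHA8), 0 called in the CRISPR/Cas line and 1 lower in the activation-tagged line (AHA8), all against the reference line and none past the fold limits. Over all genes 16.9%, 2.77% and 10.9% were higher in the first 3 of these lines, 12.9% were lower in the CRISPR/Cas line and 1.75% were lower in the activation-tagged line. Without GLDT::5'truncatedNAC052 replicate 1, 0 pumps were called in that line. AHA1, a main pump of leaves, averaged 703 CPM in the GLDT::5'truncatedNAC052 line, against 551 CPM in the reference line (log2 fold change 0.35, edgeR adjusted p = 0.0495).

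Among 12 growth regulators, 11 of them tested, 5 were higher than in reference plants and 0 lower in the GLDT::NAC052 line, beside 16.9% and 17.2% of all genes. The GLDT::5'truncatedNAC052 line had 3 higher and 0 lower (2.77% and 3.05% of all genes), the CRISPR/Cas line 1 higher and 4 lower (10.9% and 12.9%), and the activation-tagged line 1 higher and 1 lower (1.92% and 1.75%). The median log2 fold changes in this order were 0.20, 0.30, -0.28 and -0.19. ARGOS, an auxin-inducible gene of organ size, had 3.75, 3.78 and 4.69 CPM in the GLDT::NAC052 line and 0.0562, 0.235 and 0.628 CPM (2, 10 and 25 counts) in the CRISPR/Cas line, against 1.33, 1.52 and 1.23 CPM in the reference line (log2 fold changes 1.58 and -2.12, edgeR adjusted p = 0.0294 and 0.022). ARL, its brassinosteroid-inducible relative that acts in cell expansion, had 9.11, 8.02 and 12.1 CPM in the GLDT::NAC052 line and 1.88, 1.31 and 2.89 CPM in the CRISPR/Cas line, against 5.96, 4.11 and 3.05 CPM in the reference line (log2 fold changes 1.15 and -1.11, edgeR adjusted p = 0.00842 and 0.0196). PIF3, a phytochrome-interacting factor, had 22.1, 15.4 and 24.7 CPM in the GLDT::NAC052 line and 14.9, 16.1 and 20.7 CPM in the GLDT::5'truncatedNAC052 line, against 10.9, 10.5 and 9.05 CPM in the reference line (log2 fold changes 1.03 and 0.76, edgeR adjusted p = 0.000408 and 0.0173). In these 3 genes the GLDT::NAC052 libraries lay above all reference libraries, and for ARGOS and ARL the CRISPR/Cas libraries lay under them.

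Marker lists were summed in each library beside these results. The 3 leaf markers gave 14550 to 19910 CPM in the GLDT::NAC052 line, 17480 to 24870 CPM in the GLDT::5'truncatedNAC052 line, 19960 to 22720 CPM in the CRISPR/Cas line and 27840 to 32450 CPM in the activation-tagged line, against 24670 to 27210 CPM in the reference line. All 3 passed as lower in the GLDT::NAC052 line, and CA1, a chloroplast carbonic anhydrase, passed as lower in the CRISPR/Cas line, with 1200, 1225 and 1505 CPM, against 2340, 2731 and 2940 CPM in the reference line (log2 fold change -1.03, edgeR adjusted p = 0.00317). The 3 dividing cell markers gave 5.00 to 5.98 CPM in the CRISPR/Cas line, under the 8.19 to 11.8 CPM of the reference line, while the other lines, at 7.18 to 10.9 CPM, overlapped it. In the activation-tagged line the markers moved in opposite directions, and none of the 3 was called. KNOLLE averaged 5.76 CPM there, against 8.25 CPM in the reference line, with no overlap. CYCB1;1 and CDKB1;1 averaged 1.69 and 1.49 CPM, against 1.15 and 1.06 CPM in the reference line. The 3 guard cell markers, from cells in which EXPA1 has been studied, gave 58.3 to 81.6 CPM in the GLDT::NAC052 line, 57.6 to 67.8 CPM in the GLDT::5'truncatedNAC052 line, 51.6 to 62.8 CPM in the CRISPR/Cas line and 51.5 to 57.6 CPM in the activation-tagged line, against 78.8 to 91.5 CPM in the reference line. In this order of lines KAT1 averaged 32.6, 32.0, 27.9 and 28.8 CPM, against 47.3 CPM in the reference line. FAMA averaged 23.0, 21.6, 19.2 and 15.2 CPM, against 23.9 CPM in the reference line. MYB60 averaged 12.0, 9.63, 8.78 and 10.4 CPM, against 12.6 CPM in the reference line. In both GLDT lines the lower sum thus lay mostly in KAT1, although the GLDT::NAC052 sums overlapped those of the reference line. Of the 3 guard cell markers, 1 passed as lower in each of the GLDT::NAC052, CRISPR/Cas and activation-tagged lines, and 0 in the GLDT::5'truncatedNAC052 line. The 3 senescence markers gave 4.99 to 17.3 CPM in the GLDT::NAC052 line, 5.997 to 6.47 CPM in the GLDT::5'truncatedNAC052 line, 45.7 to 65.7 CPM in the CRISPR/Cas line and 1.57 to 2.56 CPM in the activation-tagged line, against 1.82 to 5.57 CPM in the reference line, with SAG12 at 0 counts in all 15 libraries. SAG13 rose in the CRISPR/Cas line (log2 fold change 4.78, edgeR adjusted p = 0.00047) and in the GLDT::NAC052 line (1.67, adjusted p = 0.0476). In the GLDT::NAC052 line it had 4.30, 2.70 and 12.6 CPM, against 3.47, 1.31 and 1.33 CPM in the reference line, and the lines overlapped. ORE1, a NAC factor of leaf senescence, had 5.05, 2.29 and 4.67 CPM in the GLDT::NAC052 line and 5.00, 4.04 and 2.74 CPM in the GLDT::5'truncatedNAC052 line, against 2.11, 0.965 and 0.487 CPM in the reference line. In the CRISPR/Cas line ORE1 had 0.758, 0.352 and 1.61 CPM, which overlapped the reference line. SAG13, at 64.9, 45.4 and 59.4 CPM, made up most of the senescence sum in the CRISPR/Cas line. Neither GLDT line overlapped the reference line for ORE1, which passed in the GLDT::NAC052 line (log2 fold change 1.74, edgeR adjusted p = 0.024) and not in the GLDT::5'truncatedNAC052 line (1.71, adjusted p = 0.0826). The part of these cell types in the expansin levels was not tested. The 4 flower markers summed to at most 2.04 CPM and the 3 root hair markers to at most 0.0393 CPM in any library. Among those root hair markers, EXPA7 and EXPA18 are themselves alpha-expansins.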

How the data were processed

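The authors trimmed single-end reads of stranded mRNA libraries and mapped them to TAIR10 with CLC Genomics Workbench, and bcl2fastq is named in the submitters' processing notes. They deposited whole-number read counts per gene, without normalization, for 15 libraries. The table's other 6 columns match no sample label and were left out. Counts were filtered by edgeR's filterByExpr with TMM scaling (trimmed mean of M values), and all 15 libraries were fitted with 1 term per line by edgeR's quasi-likelihood test (edgeR 4.0.16, R 4.3.3), with Benjamini-Hochberg adjustment over 19663 genes. A gene passed at an adjusted p under 0.05, and the study's limits of 2 and 0.5 on the fold change were counted apart. Standard errors are the log2 fold change divided by the root of the F statistic. The procedure was tested on simulated data. Sequences, exon lengths and coordinates came from RefSeq's TAIR10.1 assembly, and symbols were matched by gene identifier.

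The members and all lists were chosen with earlier results of these data known. Named in the text were all members, NAC052 and, from the lists, genes that passed with the fold limits against the reference line at a mean of at least 1 CPM. Called proton pumps, the guard cell and dividing cell markers, EXPA7, EXPA9, EXPA13, EXPA14, EXPA18, EXPA20 and SAG12 were also named, chosen after their values were seen. Alternatives were DESeq2 size factors, library totals, no filter, at least 10 counts in every library, DESeq2 1.42.0, limma voom 3.58.1, only the 6 libraries compared, a replicate block and leaving out each library in turn. For the GLDT::NAC052 line against the GLDT::5'truncatedNAC052 line, deviations of same-numbered libraries correlated at 0.206, 0.201 and 0.586. Libraries of different number ranged from -0.442 to 0.371 there. Among them, replicate 1 of either line with replicate 2 of the other gave 0.234 and 0.371, so the numbers did not clearly pair the libraries. The block changed no call of a member there.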

Additional observations from a re-analysis of the deposited data

How the results depend on the processing

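All 35 calls of members in the 7 comparisons kept their direction under every alternative, and 257 of 280 values under the 8 settings other than leaving out a library also kept their call. With a library left out, 166 of 210 values kept their call and 44 lost it. Set against the reference line, 1 member was called in activation-tagged plants, and 2 were under library totals, the DESeq2 Wald test or only the 6 libraries compared. For CRISPR/Cas the number called was 6, and 3 under library totals (2 higher and 1 lower). For GLDT::5'truncatedNAC052 it was 3, with 5 by the DESeq2 Wald test and 1 with only the 6 libraries. For GLDT::NAC052 against GLDT::5'truncatedNAC052 it was 1, with 2 by the DESeq2 Wald test and 0 with only the 6 libraries. With only the 6 libraries, 15 of 19109 genes were called in this comparison, against 1647 of 19663 in the main fit. The genes called against the reference line were then 205, 5443, 1005 and 5863 for GLDT::5'truncatedNAC052, GLDT::NAC052, activation-tagged and CRISPR/Cas. In the main fit they were 1145, 6704, 722 and 4669. The DESeq2 Wald test called more genes throughout, 1914, 7274, 1424 and 5433 in the same order. It called 2502 for GLDT::NAC052 against GLDT::5'truncatedNAC052. With the fold limits the counts of members against the reference line were 0 for activation-tagged, 1 for CRISPR/Cas, 1 for GLDT::5'truncatedNAC052 and 5 for GLDT::NAC052. They were 4 for CRISPR/Cas against GLDT::5'truncatedNAC052 and 5 for GLDT::NAC052 against CRISPR/Cas. Leaving out each library in turn gave 0 to 1, 1 to 7, 2 to 3 and 7 to 9 members against the reference line, for activation-tagged, for CRISPR/Cas, for GLDT::5'truncatedNAC052 and for GLDT::NAC052 in that order. It gave 6 to 8 for CRISPR/Cas against GLDT::5'truncatedNAC052, 0 to 3 for GLDT::NAC052 against GLDT::5'truncatedNAC052 and 6 to 8 for GLDT::NAC052 against CRISPR/Cas. Over all genes the same fits called 219 to 377, 3052 to 3661, 298 to 874 and 4905 to 6215 genes against the reference line, in the same order. For the last 3 comparisons they called 4034 to 5960, 321 to 3128 and 6612 to 7245 genes, against 5573, 1647 and 8105 in the main fit.

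Library totals moved the middle log2 fold change over all genes by -0.10, 0.18, 0.08 and 0.12 against the reference line, again for activation-tagged, for CRISPR/Cas, for GLDT::5'truncatedNAC052 and for GLDT::NAC052, and by 0.10 for CRISPR/Cas against GLDT::5'truncatedNAC052. The genes called higher and lower then numbered 196 and 491, 4756 and 1445, 895 and 429, 4524 and 2458, and 3563 and 2079 in these comparisons, against 377 and 345, 2142 and 2527, 545 and 600, 3322 and 3382, and 2576 and 2997 with TMM scaling. A replicate block turned 1 uncalled value, EXPA8 for CRISPR/Cas against GLDT::5'truncatedNAC052 (0.003), and moved the CRISPR/Cas count against the reference line to 4. Same-numbered libraries of different lines are not known to share more than a number.

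Signs turned only for values that were not called. Under library totals these were EXPA1 in the activation-tagged line (-0.05), EXPA4 for GLDT::NAC052 against GLDT::5'truncatedNAC052 (0.014), EXPA8 for CRISPR/Cas against GLDT::5'truncatedNAC052 (0.049) and EXPA15 for GLDT::NAC052 against CRISPR/Cas (-0.011). With a library left out, log2 fold changes ranged from -0.045 to 0.16 for EXPA1, -0.15 to 0.03 for EXPA5 and -0.51 to 0.16 for EXPA15 for activation-tagged plants, -0.63 to 0.037 for EXPA15 with CRISPR/Cas, -0.41 to 0.003 for EXPA8 and -0.51 to 0.16 for EXPA15 with GLDT::5'truncatedNAC052 and -0.57 to 0.092 for EXPA15 in the GLDT::NAC052 line, each against the reference line. For CRISPR/Cas against GLDT::5'truncatedNAC052 they ranged from -0.31 to 0.11 for EXPA8, -0.58 to 0.044 for EXPA11 and -0.23 to 0.069 for EXPA15. For GLDT::NAC052 against GLDT::5'truncatedNAC052 they ranged from -0.13 to 0.066 for EXPA4, -0.17 to 0.13 for EXPA15 and -0.01 to 0.28 for EXPA16, and against CRISPR/Cas from -0.016 to 0.13 for EXPA15. The causes were not tested.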
